A study of Homo sapiens with 6 samples.

Results

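Integrins and focal adhesion genes were followed as a set of 37 members in MDA-MB-231 cells, an established human TNBC line. A member was every row of the deposited tables whose gene symbol matched a list of names. All 37 were found, of 41471 symbols in the knockdown table and of 34157 symbols in the Reb table. The set held 11 integrin subunits and 26 genes of the adhesion plaque. In the knockdown experiment, cells carried 1 of 3 lentiviral hairpins stably: a scramble shRNA as the control, CDK16-sh1 or CDK16-sh2, against the PCTAIRE kinase CDK16. In the Reb experiment, cells were exposed for 48 h to Reb at 1 μM or at 5 μM, or to the vehicle DMSO. Reb is Rebastinib, a small-molecule kinase inhibitor. All cells were grown in DMEM with serum, so every library came from the same line in culture, without matrix or tissue context named in the labels. Each of the 6 conditions had 1 library, so no value had a replicate, and each difference below compares 2 libraries.

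Integrins are heterodimers of 1 alpha and 1 beta subunit that bind matrix proteins outside the cell. The short tails of most beta subunits are bound by talin and kindlin, which turn the receptor to its active state, and vinculin ties talin to actin. Around this link a plaque assembles from LIM-domain scaffolds such as paxillin and zyxin, from the ILK-PINCH-parvin complex, from tensins, and from kinases and adaptors such as FAK, p130Cas and CRK that signal to the cytoskeleton. In motile mesenchymal-like tumor cells, focal adhesions form and turn over at the leading edge as the cell moves.

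Library totals were 25838443 to 31955119 reads assigned to genes in the knockdown experiment and 37655548 to 50303269 in the Reb experiment. CDK16 itself had 3223 reads with scramble shRNA, 1360 with CDK16-sh1 and 846 with CDK16-sh2. Under Reb its reads numbered 4609 at 1 μM and 2797 at 5 μM, beside 4996 in the vehicle library. These are raw reads, and the library at 5 μM had the smallest total of its experiment. Its scaling factor (TMM) was 0.718, against 1.16 with DMSO. The direction of CDK16 at 5 μM therefore depends on the scaling and is not read from these reads. The library at 5 μM stood apart, with 35.3% of its reads on its 100 most abundant genes and 16.4% on mitochondrial transcripts, against 24.3% and 7.19% with DMSO. The CDK16-sh2 library had 16.2% of its reads on mitochondrial transcripts against 11.3% with scramble shRNA, and the part of these shifts in the values below was not tested. Of the markers of the line, the mesenchymal genes VIM, AXL and ZEB1 were present in every library with at least 1106 reads, whereas CDH2 had at most 28 reads in any library and SPARC at most 15 in the knockdown experiment against 1925 with DMSO. ESR1 and PGR had at most 16 reads and CDH1 at most 53, while ERBB2, EPCAM and GATA3, listed among the low markers, had at least 996, 125 and 73. The leukocyte and liver markers PTPRC, CD3E and ALB had at most 35 reads, and the endothelial genes PECAM1 and CDH5 at most 154.

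The control libraries show what the line's adhesion transcripts were made of. Filamin A (FLNA), the actin cross-linker, had the highest level of the set, with 320 RPKM with scramble shRNA and 228 RPKM with DMSO. RPKM is the read count divided by the length of the gene's exons and by the library total, so levels of different genes can be set side by side. ITGB1, the beta subunit shared by most matrix receptors, had 168 and 130 RPKM. Its partners for laminin, ITGA3 and ITGA6, followed with 109 and 59.0 RPKM and with 66.4 and 46.3 RPKM. Talin 1 (TLN1) had 85.1 and 79.3 RPKM and the hyaluronan receptor CD44 had 79.8 and 34.3 RPKM. At the other end, ITGB8 had 0.0383 and 0.0498 RPKM, and the kinase PYK2 (PTK2B) had 0.161 and 1.25 RPKM against 10.9 and 20.2 RPKM for its relative FAK (PTK2).

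**Figure D1:**
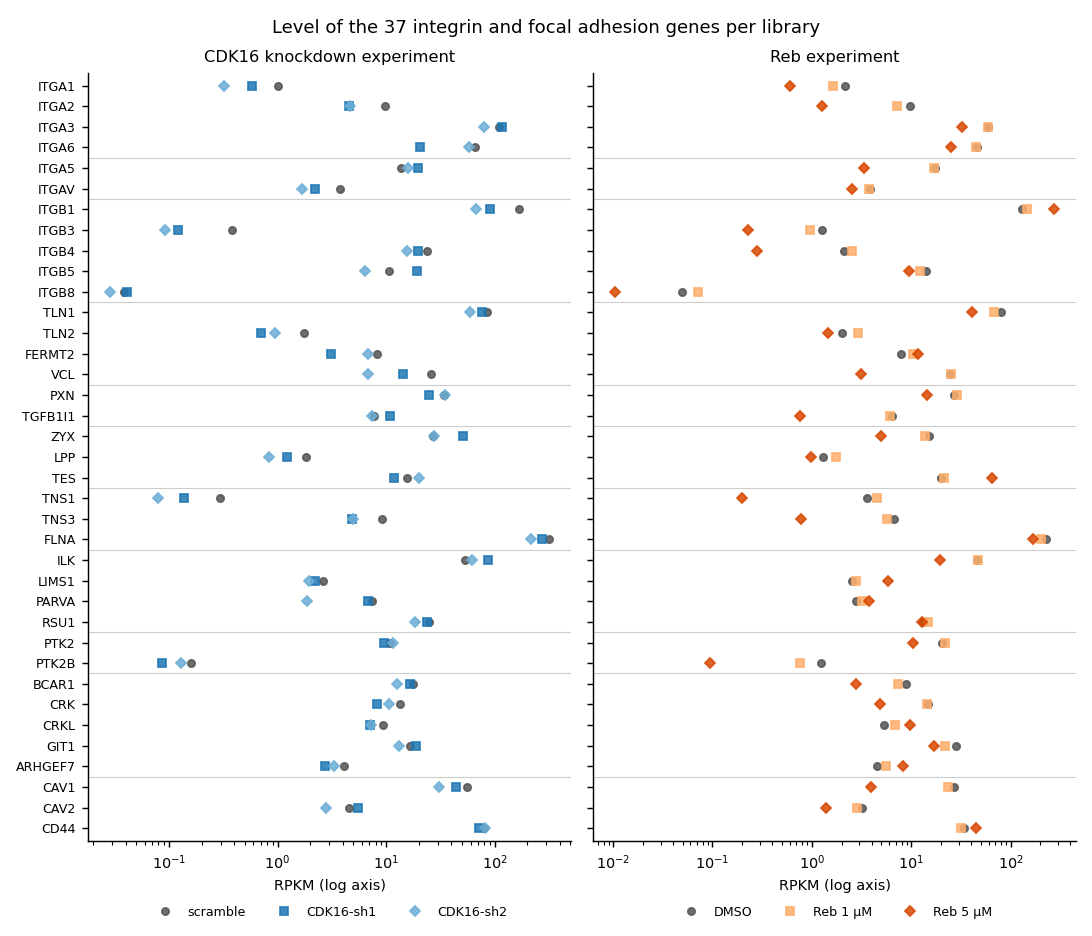
Level of each of the 37 members in the 6 libraries, in RPKM on a log axis, with the knockdown experiment on the left and the Reb experiment on the right. Each point is 1 library, and horizontal lines separate the roles, from integrin subunits at the top to caveolins and CD44 at the bottom. ITGB1 at 5 μM Reb sits farthest to the right of its row, and TNS1 and PTK2B at 5 μM sit far to the left of theirs.

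The unperturbed cells of the experiments already differed in several members. Of the 36 members with a mean of at least 1 CPM over both controls, 8 were at least 2-fold apart between scramble shRNA and DMSO, which is 22.2%, against 23.7% of 15783 genes. ITGB4, which pairs with ITGA6 at hemidesmosomes, had 23.9 RPKM with scramble shRNA and 2.13 RPKM with DMSO, a log2 difference of -3.43. TNS1, a tensin of fibrillar adhesions, went the other way, with 0.295 against 3.61 RPKM and a log2 difference of 3.23. Each RPKM value is relative to the total of its own library, and vector, passage and run cannot be told apart here. Treated libraries were therefore compared only with the control of their own experiment.

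CDK16-KD addressed whether loss of this kinase moves the adhesion genes. With CDK16-sh1, 5 of 34 members tested were at least 2-fold lower than with scramble shRNA, which is read against 6.86% of all 15295 genes tested, and 0 were at least 2-fold higher, against 4.33% of all genes. With CDK16-sh2, 5 of 34 were at least 2-fold lower, against 7.62% of all genes, and 0 were higher, against 2.2%. The lower members were ITGA6, FERMT2, TLN2, ITGA2 and TNS1 with CDK16-sh1, and PARVA, VCL, TNS1, ITGA1 and ITGB1 with CDK16-sh2, both read against the same control library. The median log2 fold change of the members was -0.28 with CDK16-sh1 and -0.27 with CDK16-sh2, against -0.0018 and 0.02 over all genes tested. Members below 0 numbered 26 of 34 with CDK16-sh1 and 25 of 34 with CDK16-sh2, which is 76.5% and 73.5%, against 50.1% and 48.6% of all genes tested. The members together took 1.02% of all reads with scramble shRNA, 0.863% with CDK16-sh1 and 0.726% with CDK16-sh2. Genes below a mean of 1 CPM were not tested, and ITGB3, ITGB8 and PTK2B fell under this limit in the knockdown experiment.

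**Figure D2:**
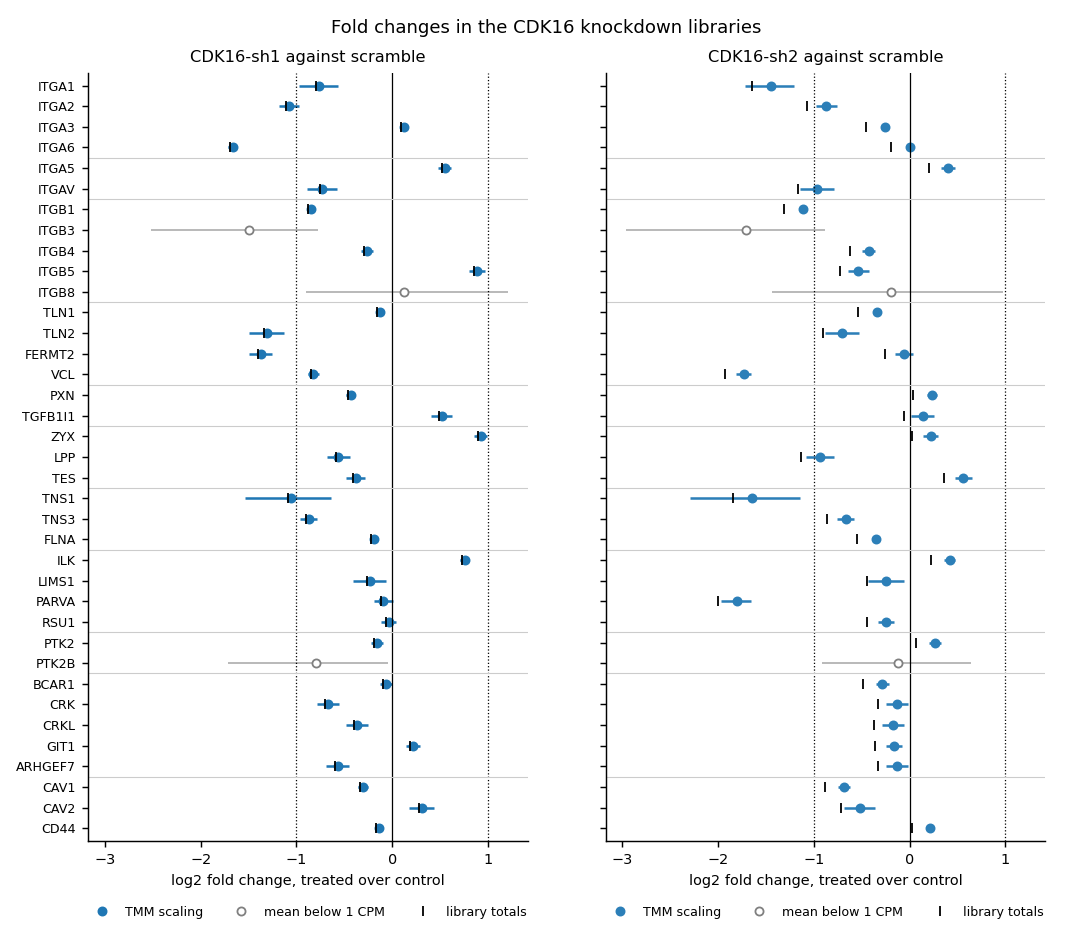
Log2 fold change of each member against scramble shRNA, with CDK16-sh1 on the left and CDK16-sh2 on the right. Filled points are values after TMM scaling, lines are 95% counting intervals, open points are members with a mean below 1 CPM, ticks are values scaled by library totals, and dotted lines mark 2-fold. ITGA6 sits at -1.67 on the left and at 0.004 on the right, while PARVA sits at -0.09 on the left and at -1.81 on the right.

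Among the integrins, the clearest contrast between the hairpins was in ITGA6, the alpha subunit of the laminin receptors. ITGA6 had 11204 reads with scramble shRNA, 4275 with CDK16-sh1 and 10433 with CDK16-sh2. It was thus low in 1 of the 2 knockdown libraries. The log2 fold change was -1.67 with CDK16-sh1, with a counting interval of -1.72 to -1.62, and 0.004 with CDK16-sh2, from -0.03 to 0.04, and CDK16-sh2 was higher than CDK16-sh1 by 1.67, from 1.62 to 1.72. Counting intervals were computed from the 2 read counts alone and hold no variation between cultures. In such bulk RNA, fewer cells with a transcript and less of it per cell cannot be told apart.

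ITGB1 was lower with both hairpins. Its reads numbered 26065 with scramble shRNA, 17545 with CDK16-sh1 and 11190 with CDK16-sh2, and the log2 fold changes were -0.85 (-0.88 to -0.82) and -1.11 (-1.15 to -1.08). The collagen receptor subunits behaved alike in direction. ITGA1 had 489, 347 and 165 reads in scramble, CDK16-sh1 and CDK16-sh2, with log2 fold changes of -0.77 (-0.97 to -0.57) and -1.45 (-1.72 to -1.20). ITGA2 had 2003, 1151 and 1017 reads, with log2 fold changes of -1.07 (-1.18 to -0.97) and -0.87 (-0.98 to -0.76). Both knockdown libraries were thus below the control for both genes. Part of the ITGA1 exons, 5.63% of their bases, is shared on the same strand with other genes such as PELO, so its count is uncertain to that extent.

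ITGA3, which had the highest level of the alpha subunits, did not follow them. It had 27538 reads with scramble shRNA, 36355 with CDK16-sh1 and 21445 with CDK16-sh2, at log2 fold changes of 0.12 and -0.25. The subunits for RGD-containing ligands lay on either side of the control. ITGA5, the fibronectin receptor subunit, had 2685, 4763 and 3298 reads and log2 fold changes of 0.55 (0.48 to 0.62) and 0.40 (0.33 to 0.48), and was higher in both. ITGAV was lower in both, at -0.73 and -0.97. ITGB5, a partner of ITGAV, was at 0.88 with CDK16-sh1 and at -0.54 with CDK16-sh2.

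Of the genes that bind and activate the beta tails, FERMT2 and TLN2 were lowest with CDK16-sh1. Kindlin-2 (FERMT2) had 1807 reads with scramble shRNA, 845 with CDK16-sh1 and 1610 with CDK16-sh2, at log2 fold changes of -1.37 (-1.49 to -1.25) and -0.06 (-0.16 to 0.04). TLN2, the less abundant talin, had 742, 362 and 422 reads, at -1.31 (-1.50 to -1.13) and -0.70 (-0.88 to -0.53). TLN1 was at -0.13 and -0.34. Vinculin (VCL) was below the control with both hairpins and lowest with CDK16-sh2. It had 6683, 4575 and 1867 reads and log2 fold changes of -0.82 (-0.88 to -0.77) and -1.73 (-1.81 to -1.66). Its exons overlap AP3M1 on the other strand over 11.1% of their bases, and the strand setting of the counting is not given in the sources used here.

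In the ILK-PINCH-parvin complex, PARVA stood alone. It had 1597 reads with scramble shRNA, 1816 with CDK16-sh1 and 423 with CDK16-sh2, so that only the CDK16-sh2 library was low. The log2 fold changes were -0.09 (-0.19 to 0.01) and -1.81 (-1.97 to -1.65). ILK, the scaffold of the complex, was higher with both hairpins at 0.76 and 0.42, although 78.5% of its exon bases lie across other genes such as TAF10 on the opposite strand. PINCH1 (LIMS1) was at -0.24 with each hairpin and RSU1, which binds PINCH1, was at -0.04 and -0.24. LIMS1 has near-identical copies in the genome, so its reads are uncertain.

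The plaque scaffolds and adaptors stayed within 2-fold with either hairpin, apart from TNS1. That gene had 119, 68 and 34 reads and a mean of 2.7 CPM, with wide counting intervals of -1.54 to -0.64 and -2.30 to -1.14. TNS3 was lower with both hairpins, at -0.87 and -0.67. Zyxin (ZYX) was higher with both, at 0.92 and 0.22, and paxillin (PXN) differed in sign, at -0.43 and 0.23. Focal adhesion kinase, PTK2, was at -0.16 and 0.27. The 5 adaptors and exchange factors ranged from -0.67 to 0.22 with CDK16-sh1 and from -0.29 to -0.13 with CDK16-sh2. Among the caveolins and CD44, values ran from -0.31 to 0.31 and from -0.68 to 0.22.

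The remaining members for which counts at 5 μM Reb are given further on had the following counts in the knockdown libraries. CAV1, the coat protein of caveolae, had 5911 reads with scramble shRNA, 5789 with CDK16-sh1 and 3420 with CDK16-sh2. ITGB4 had 4170, 4213 and 2883 reads in the same order. For both genes CDK16-sh2 gave the lowest count and the lowest log2 fold change. TNS3 had 2774, 1833 and 1623 reads. Hic-5 (TGFB1I1) had 1087, 1885 and 1109 reads, at log2 fold changes of 0.52 and 0.14. TES had 1736, 1616 and 2377, at -0.38 and 0.56. CRKL had 1302, 1222 and 1073 reads, at log2 fold changes of -0.37 (-0.48 to -0.25) and -0.17, and ARHGEF7 had 1257, 1026 and 1065, at -0.57 (-0.69 to -0.45) and -0.13. BCAR1 had 4182, 4837 and 3187 reads, at -0.07 and -0.29. CD44 had 20745, 22882 and 22402 reads, at log2 fold changes of -0.14 (-0.16 to -0.11) and 0.22, and LIMS1 had 531, 546 and 416. PTK2B had few reads, 33, 22 and 28, and ITGB3 had 43, 17 and 11 with log2 fold changes of -1.49 (-2.52 to -0.78) and -1.71 (-2.96 to -0.88).

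Taking the hairpins as 1 group against the scramble library gives the test the design allows here. The quasi-likelihood test of edgeR, adjusted by Benjamini-Hochberg over all 15295 genes, called 0 of 34 members at an adjusted p of 0.05 and 2-fold, against 0% of all genes. The smallest adjusted p of a member was 1.00. At an unadjusted p under 0.05 there was 1 member, VCL, beside 382 genes or 2.5% of all. DESeq2 also called 0 members, against 0% of all genes, and had 1 member at an unadjusted p under 0.05, beside 1.52% of all genes. With library totals in place of TMM, 8 members were at least 2-fold lower with CDK16-sh2, against 11.1% of all genes, as ITGA2, ITGAV and LPP passed the threshold too; this scaling moved the median of all genes from 0.02 to -0.18.

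Transcript composition moved with part of these values. GC content is the share of G and C bases in a gene's longest transcript. Over the 34 members, log2 fold changes with CDK16-sh1 and GC content correlated with Pearson's r of 0.48 and Spearman's rho of 0.49, against an r of 0.44 over all genes tested, as a description across genes of 2 libraries. With CDK16-sh2 the r was 0.29 over the members and 0.12 over all genes. After trends with GC content and length were removed, 3 members were at least 2-fold lower with CDK16-sh1, against 4.75% of all genes, namely ITGA6 at -1.33, TLN2 at -1.16 and TNS1 at -1.04. FERMT2 was then at -0.81 and ITGA2 at -0.62, and ITGB1, ITGA1 and ITGAV with CDK16-sh1 were at -0.43, -0.17 and -0.22. In the CDK16-sh2 library, 4 members stayed at least 2-fold lower, against 6.11%, and ITGB1 was at -0.89. In that setting 22 of 34 members, or 64.7%, were below 0 with each hairpin, against 47.1% and 41.6% of all genes. The members' medians were -0.19 with CDK16-sh1 and -0.20 with CDK16-sh2, against 0.04 and 0.11 over all genes.

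**Figure D3:**
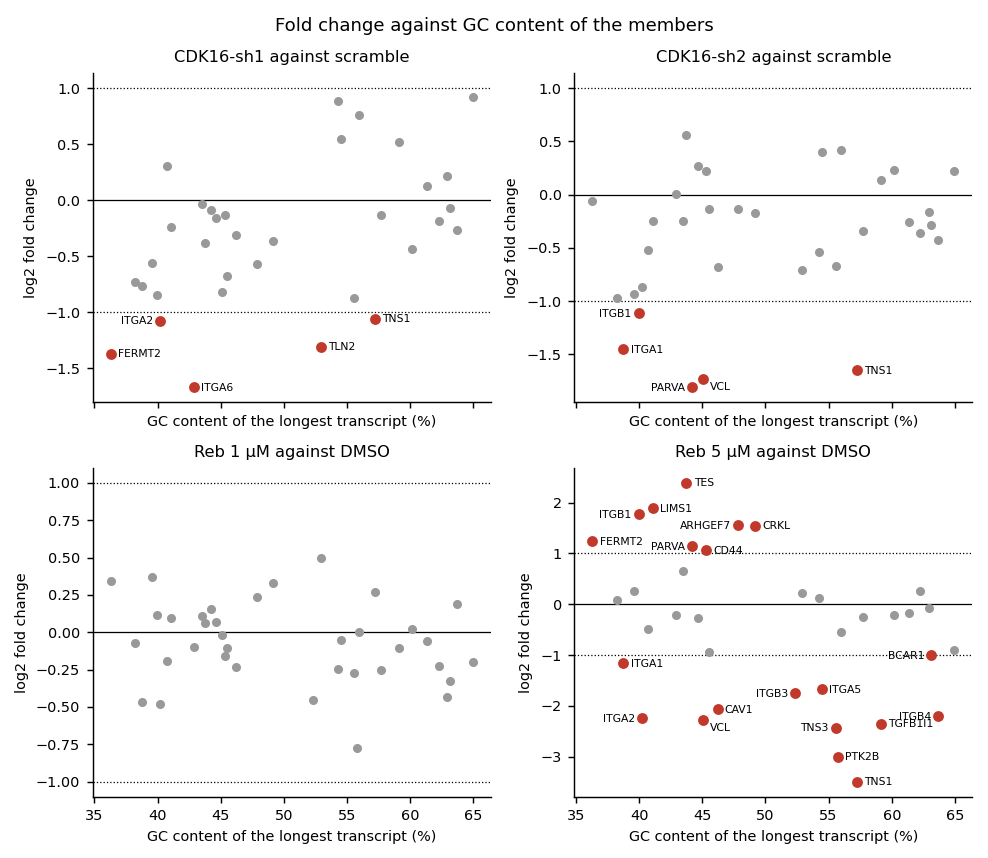
Log2 fold change of the members tested against GC content of the longest transcript in percent, 1 panel for each treated library against its control. Each point is 1 member, red points with names are at least 2-fold lower or higher, and dotted lines mark 2-fold. The 8 members that were at least 2-fold higher at 5 μM Reb have between 36.3% and 49.2% GC, and the 12 that were lower have between 38.8% and 63.7%.

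Reb at 1 μM left the set close to the control. Of 36 members tested, 0 were lower by 2-fold or more, against 1.92% of all 15655 genes tested, and 0 were higher by as much, against 1.28%. The members ranged from -0.77 for PTK2B to 0.49 for TLN2, with a median of -0.07 against 0.0016 over all genes. ITGB8 did not pass the filter in this experiment. By counting error alone, 19 of the 36 counting intervals lay below 0 and 12 above it. The share over all genes was not computed, and these intervals hold no variation between cultures. They are therefore not read as a shift of the set.

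At 5 μM the set split. Lower than the vehicle by 2-fold or more were 12 of 36 members, read against 27.2% of all genes tested, and 8 at least 2-fold higher, against 23.6%. The members' median was -0.23 and that of all genes -0.07, and the median size of a difference was 1.10 for members and 1.02 for all genes. These 2-fold counts stand in a library in which about as large a share of all genes differed, so they are not particular to the members. At a 4-fold threshold, 8 of 36 members were lower, against 10.1% of all genes, and 1 was higher, against 8.13%. What lies behind that difference was not tested. Scaling mattered at this dose. With library totals 16 members were at least 2-fold lower, against 43.4% of all genes, and 3 were higher, against 11.7%, while the median of all genes moved from -0.07 to -0.75. All log2 fold changes given for 5 μM are after TMM scaling unless library totals are named.

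**Figure D4:**
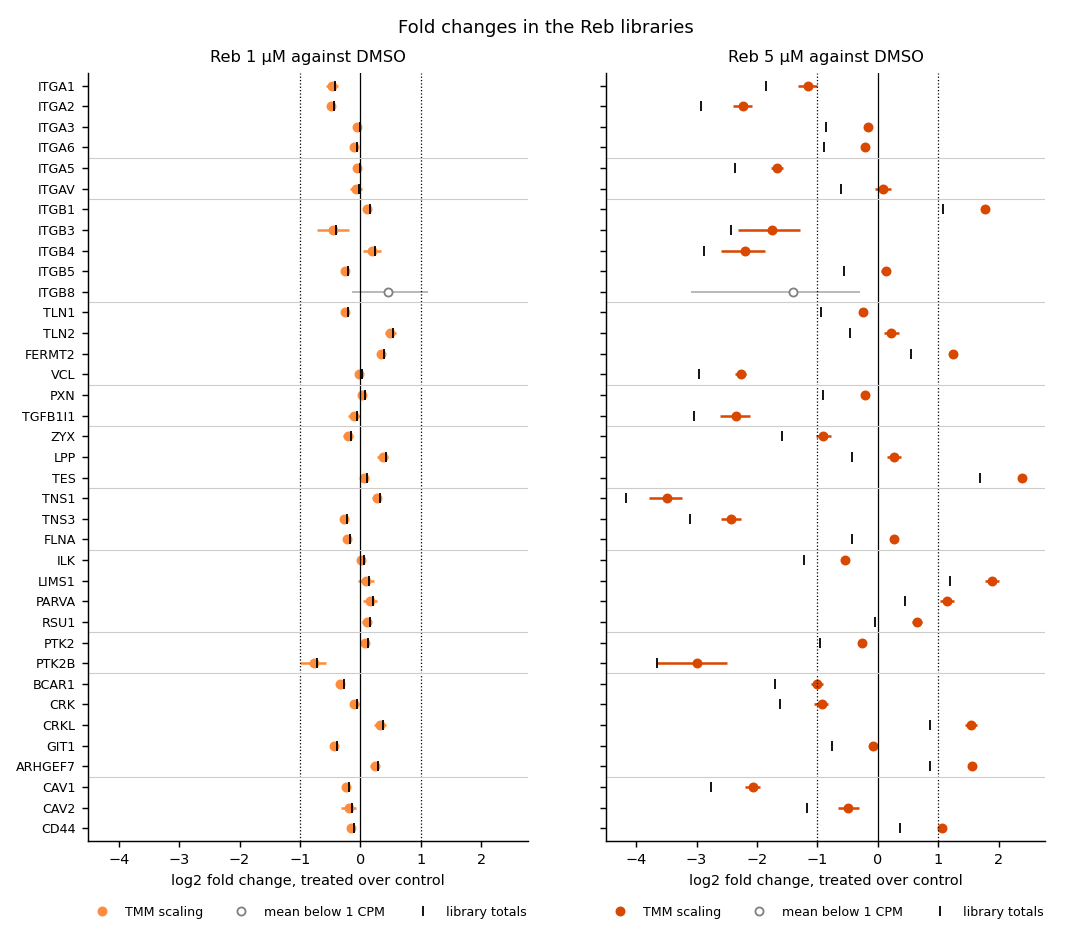
Log2 fold change of each member against DMSO, with 1 μM Reb on the left and 5 μM on the right. Filled points are values after TMM scaling, lines are 95% counting intervals, the open point is ITGB8 with a mean below 1 CPM, ticks are values scaled by library totals, and dotted lines mark 2-fold. All points on the left lie within 2-fold, whereas on the right they run from -3.49 for TNS1 to 2.39 for TES, and every tick lies below its point.

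Of the 10 integrin subunits tested at 5 μM, 1 was at least 2-fold higher than the control and 5 were at least 2-fold lower. Over all genes tested the shares were 23.6% and 27.2%, and counts of so few subunits are not read as a trait of the integrins. ITGB1 had 39435 reads with DMSO, 43421 at 1 μM and 62597 at 5 μM, so its raw count was highest in the smallest library. The log2 fold change was 0.12 at 1 μM and 1.77 (1.76 to 1.79) at 5 μM, and 1.08 with library totals. The 6 alpha subunits all had fewer reads at 5 μM than with DMSO, in a library of 37655548 against 50303269 reads. ITGA2 had 3842, 2793 and 377 reads with DMSO, 1 μM and 5 μM, at -0.48 (-0.55 to -0.41) and -2.24 (-2.40 to -2.09). ITGA5 had 6557, 6418 and 954 reads, at -0.05 (-0.10 to -0.00) and -1.67 (-1.77 to -1.57). ITGA1 had 2027, 1489 and 421 reads, at -0.47 and -1.16 (-1.31 to -1.01). The laminin receptor subunits were nearer to the control. ITGA3 had 29097, 28424 and 12016 reads and ITGA6 had 15219, 14423 and 6125, with log2 fold changes at 5 μM of -0.17 (-0.20 to -0.14) and -0.20 (-0.25 to -0.16), and of -0.86 and -0.90 with library totals.

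The remaining beta subunits were low or near the control at 5 μM. ITGB4 had 724, 839 and 72 reads with DMSO, 1 μM and 5 μM, at log2 fold changes of 0.19 and -2.20 (-2.59 to -1.87). ITGB3, a subunit of the vitronectin receptor, had 282, 209 and 38 reads and a mean of 3.6 CPM, at -0.45 and -1.75 (-2.31 to -1.29), and shares 51.6% of its exon bases with a same-strand transcript. ITGB5 was at 0.13 and ITGAV at 0.09, both of which turned negative with library totals, at -0.56 and -0.60.

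Since alpha and beta subunits are needed in pairs, their shares within a library were also compared, which needs no scaling between libraries. ITGB1 made up 77.5% of the summed RPKM of the 8 beta subunit genes with scramble shRNA, 63.4% with CDK16-sh1 and 69.0% with CDK16-sh2. In the Reb experiment it made up 86.6% with DMSO, 88.8% at 1 μM and 95.5% at 5 μM. Thus ITGB1's share was below its control in both knockdown libraries and above it in both Reb libraries. Summed levels, unlike shares, depend on the scaling. As deposited, relative to library totals, the sum of the 18 alpha subunits was 207 RPKM with scramble shRNA and 168 and 164 with the hairpins, and 142, 138 and 67.6 RPKM with DMSO, 1 μM and 5 μM Reb. The sum of the beta subunits was 216, 144 and 98.2 RPKM in the knockdown experiment and 151, 165 and 290 RPKM in the Reb experiment. Divided by the TMM factors, the alpha sums were 196, 162 and 178 in the knockdown experiment and 123, 115 and 94.1 in the Reb experiment, in the same order. The beta sums were then 205, 140 and 107, and 130, 137 and 403. Among alpha subunits, ITGA6 took 32.1% with scramble shRNA, 12.2% with CDK16-sh1 and 35.5% with CDK16-sh2, and ITGA3 took 52.6%, 69.3% and 48.6%. At 5 μM Reb the share of ITGA5 was 4.94% against 12.1% with DMSO and that of ITGA2 was 1.87% against 6.80%, while ITGA3 and ITGA6 together made up more of the pool, with 48.1% and 36.8% against 41.5% and 32.6%.

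**Figure D5:**
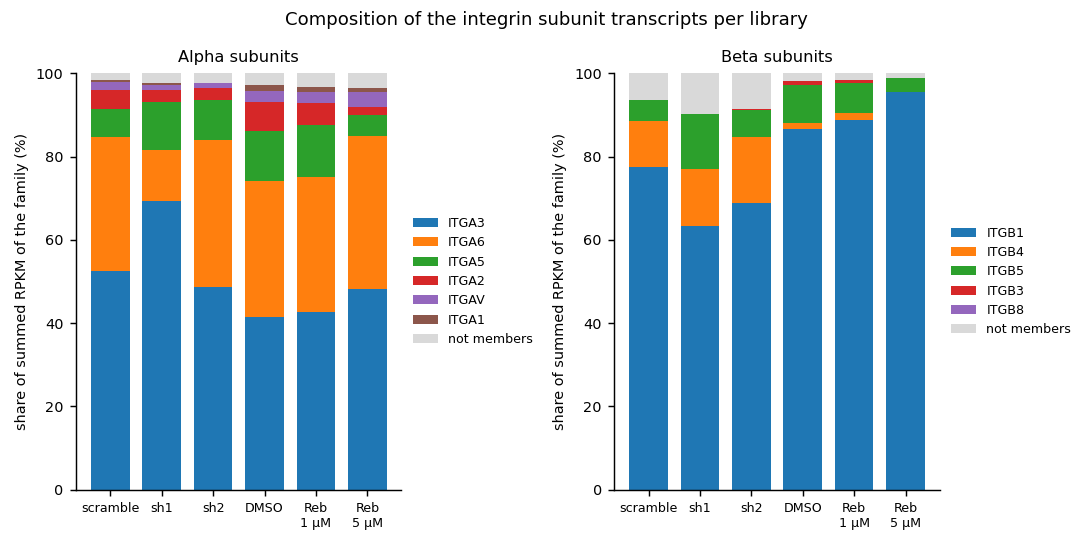
Share of each integrin subunit gene in the summed RPKM of its family in percent, for 18 alpha subunits on the left and 8 beta subunits on the right. Each bar is 1 library, colored blocks are members and the grey block is the sum of the subunits outside the set. The ITGA6 block is smallest with CDK16-sh1, at 12.2%, and the ITGB1 block is largest at 5 μM Reb, at 95.5%.

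Vinculin and the activators diverged at 5 μM. VCL had 12340 reads with DMSO, 12397 at 1 μM and 1185 at 5 μM, at log2 fold changes of -0.02 (-0.05 to 0.02) and -2.27 (-2.36 to -2.19). FERMT2 had 3391, 4380 and 3732 reads, at 0.34 (0.28 to 0.41) and 1.25 (1.18 to 1.31), and 0.56 with library totals. TLN1 was at -0.25 at both doses and TLN2 at 0.49 and 0.23. TLN2 had 1630, 2335 and 885 reads and was at -0.46 with library totals at 5 μM.

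The LIM-domain scaffolds held the member with the largest positive value. TES (testin), which binds zyxin at adhesions and stress fibers, had 4277, 4545 and 10399 reads with DMSO, 1 μM and 5 μM, at log2 fold changes of 0.06 (0.00 to 0.12) and 2.39 (2.34 to 2.44). It was at 1.70 with library totals, and only the 5 μM library was high. Hic-5 (TGFB1I1), the close relative of paxillin, had 1727, 1629 and 156 reads, at -0.11 and -2.35 (-2.61 to -2.12). PXN was at -0.22 and ZYX at -0.90. The tensins had the most negative values. TNS1 had 2831, 3472 and 116 reads, at 0.27 (0.20 to 0.34) and -3.49 (-3.78 to -3.23), and TNS3 had 3987, 3360 and 343 reads, at -0.27 and -2.43 (-2.59 to -2.27). FLNA was at 0.26, and at -0.43 with library totals.

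Genes of the ILK-PINCH-parvin complex were split as well. LIMS1 had 988, 1072 and 1700 reads with DMSO, 1 μM and 5 μM, at 0.09 (-0.03 to 0.22) and 1.89 (1.78 to 2.01), and 1.20 with library totals. PARVA had 1148, 1300 and 1179 reads, at 0.16 and 1.14 (1.03 to 1.27), so its raw counts were nearly level and its log2 fold change was 0.46 with library totals. ILK was at -0.54 and RSU1 at 0.65, the latter at -0.04 with library totals.

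Among kinases and adaptors, PYK2 was far below its control while FAK was near it. PTK2B had 498, 295 and 28 reads, at -0.77 (-0.99 to -0.57) and -2.99 (-3.65 to -2.50), and PTK2 was at 0.07 and -0.27. CRKL had 1423, 1818 and 1930 reads, at 0.33 and 1.55 (1.45 to 1.65), whereas its paralog CRK was at -0.10 and -0.93. Both adaptors bind phosphorylated p130Cas, whose gene BCAR1 had 4129, 3339 and 954 reads, at -0.33 and -1.005 (-1.11 to -0.90), on the threshold itself. ARHGEF7 (beta-PIX), an exchange factor for Rac and Cdc42, had 2702, 3230 and 3700 reads, at 0.23 and 1.56 (1.49 to 1.63), and its partner GIT1 was at -0.44 and -0.07. CRKL and ARHGEF7 were at 0.86 and 0.87 with library totals.

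Membrane components of adhesions differed from each other at 5 μM. CAV1, the main coat protein of caveolae, had 5489, 4750 and 607 reads, at -0.23 (-0.29 to -0.18) and -2.07 (-2.19 to -1.95). CAV2 was at -0.19 and -0.49. CD44 had 17339, 15802 and 16817 reads, at -0.16 and 1.06 (1.03 to 1.09), and its log2 fold change was 0.37 with library totals.

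The doses differed directly from each other in most of these genes. Values at 5 μM minus those at 1 μM were -3.76 (-4.05 to -3.50) for TNS1, -2.39 (-2.78 to -2.06) for ITGB4 and -2.25 (-2.34 to -2.17) for VCL. The same difference was 1.66 (1.64 to 1.68) for ITGB1 and 2.33 (2.28 to 2.38) for TES.

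For both doses as 1 group against the vehicle, the same edgeR test called 0 of 36 members, against 0.00639% of all genes called lower and 0.0703% called higher. The smallest adjusted p of a member was 1.00, 0 members and 228 genes had an unadjusted p under 0.05, and DESeq2 called 0 members, against 0.0256% of all genes lower and 0.083% higher. With log2(dose + 1) as a linear term in place of the grouping, the same test called 14 members. These were 9 lower, against 11.1% of all genes, and 5 higher, against 13.3%. TNS1 had the smallest adjusted p of the members, 0.00106, followed by TES with 0.00195. The called members were TNS1, TNS3, PTK2B, ITGA2, TGFB1I1, VCL, CAV1, ITGB4 and ITGA5 on the lower side and TES, LIMS1, CRKL, ARHGEF7 and ITGB1 on the higher. This fit leaves 1 residual degree of freedom per gene among 3 libraries. Its spread comes from their departure from a straight line in log2(dose + 1), estimated with information shared over all genes tested. It holds no variation between replicate cultures.

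At 5 μM, GC content was lower in the higher members than in the rest. The 8 higher members had a median of 44.0% GC, the 12 lower a median of 55.0% and the 16 within 2-fold a median of 53.6%. Over the 36 members the log2 fold change and GC content correlated with Pearson's r of -0.38 and Spearman's rho of -0.38, against an r of -0.20 over all genes. After trends with GC content and length were removed, 12 members were at least 2-fold lower, against 26.2% of all genes, and 8 higher, against 21.7%. In that setting BCAR1 was at -0.20 and FERMT2 at 0.73, and CRK at -1.03 and FLNA at 1.08 passed the threshold in their place. ITGA3, TLN1, PXN and GIT1, slightly negative with TMM scaling, were then at 0.61, 0.43, 0.54 and 0.70. The part of composition in these values was not tested further.

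Promoters were read for all members that had an entry, to show the letters near their start sites. The RefSeq table used (GRCh38.p14) gave the stretch just before and after the start site for 31 of the 37 members. Both strands were searched for the TEAD motif GGAATG, the AP-1 motif TGANTCA and the CArG box bound by SRF. Windows around the matches are printed for the members that passed 2-fold at 5 μM, with the motif in capitals, on the gene's strand, and the position of the first motif base relative to the start site.
ITGB1, TEAD at -182, chr10:32958398-32958421, minus strand: ggcgggagaGGAATGcgtttccgg
VCL, TEAD at -171, chr10:73997936-73997959, plus strand: cctcccttaGGAATGggggagggg
ITGA5, TEAD at -82, chr12:54419334-54419357, minus strand: agggacccaGGAATGcccccccgc
ITGA5, AP-1 at -6, chr12:54419257-54419281, minus strand: tccccgcgtTGAGTCAttcgcctct
BCAR1, AP-1 at -64, chr16:75268056-75268080, minus strand: aggacggagTGAGTCAtcctgggat

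The TEAD motif was in 3 of 31 members' promoters, or 9.68%, against 14.0% of 27305 promoters. Of these 3, ITGB1 was higher at 5 μM Reb and lower with both hairpins, VCL was lower in every treated library but that at 1 μM, and ITGA5 was lower at 5 μM and higher with both hairpins, so the match did not go with 1 direction. AP-1 motifs were in 3 of 31, with GIT1 as the remaining one, or 9.68% against 7.76%. CArG boxes were in 2 of 31, FLNA and RSU1, or 6.45% against 1.29%. In ITGA5 the matches did not overlap. Such matches are letters in a window and say nothing of binding.

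Genes outside the set were counted from lists of 15 other integrin subunits and 52 other adhesome genes. In the adhesome list 48 genes were tested in each experiment. At least 2-fold lower were 4 with CDK16-sh1 and 8 with CDK16-sh2, beside 6.86% and 7.62% of all genes, and 0 were higher with either. Largest among those with a mean of at least 5 CPM were ENAH at -1.53 and DOCK1 at -1.23 with CDK16-sh1, and SDPR at -2.58, SORBS2 at -2.34 and ACTN4 at -1.67 with CDK16-sh2. ACTN4, which cross-links actin behind adhesions, had 42864 reads with scramble shRNA and 12469 with CDK16-sh2. Reb at 1 μM left 0 of them past 2-fold in either direction. The 5 μM library had 14 below and 3 above, beside 27.2% and 23.6% of all genes, with TNS4 at -4.40, TNS2 at -3.41, KANK2 at -2.53 and the kinase gene SRC at -2.15 below the control and RHOA, the GTPase of stress fibers, above it at 2.18. With library totals these counts were 25 and 1, beside 43.4% and 11.7%. Among other integrins, 3 and 4 genes passed the filter in the knockdown and Reb experiments. At least 2-fold lower were 1 with CDK16-sh1 and 1 at 5 μM, beside 6.86% and 27.2% of all genes, and 0 were higher in either. Those with a mean of at least 5 CPM were ITGB2, at 0.96, and ITGAE, at 0.20, at 5 μM.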

How the data were processed

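RNA was measured by stranded mRNA sequencing on a HiSeq X 10. The deposited count tables hold the authors' whole-number read counts per gene symbol, without normalization, and the RPKM values were deposited beside them, each count divided by gene length and library total. Per the submitters' processing notes, Trimmomatic, featureCounts and Subread 1.5.1 were used with GRCh38. The aligner, annotation and strand setting are not given in the sources used here.

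Members were matched by exact symbol. They and all gene lists were chosen with earlier results of these data known. Full counts are given for CDK16, for members at least 2-fold apart with a mean of at least 5 CPM, and for the 3 integrin subunits with the highest RPKM in the controls, and at most 5 genes per comparison are named from other lists. Other members named were chosen after their values were seen.

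Counts were scaled by TMM within each experiment (edgeR 4.0.16, R 4.3.3), and log2 fold changes used a prior count of 2 and genes averaging 1 CPM or more. Intervals are 95% Clopper-Pearson and cover counting error only. With 1 library per condition, the main tests took both treated libraries as 1 group (edgeR quasi-likelihood, Benjamini-Hochberg, with DESeq2 1.42.0 as an alternative). In these grouped tests, the difference from the control was set against the spread between hairpins or doses. That spread was estimated with information shared over all genes tested and holds no variation between replicate cultures. For Reb, dose as a linear term was a further alternative. Its spread is the departure of the libraries from a straight line in log2(dose + 1), also estimated with information shared over all genes tested. Scripts were tested on simulated data. Alternatives covered scaling, low-count filter, prior count, RPKM with 0.1 added, GC content and length trends (from GENCODE transcripts, symbols matched by name) and the fold threshold. Protein sequences were not analysed here.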

Additional observations from a re-analysis of the deposited data

Results flagged for a closer look

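In 8 members every counting interval of the hairpin libraries lay on 1 side of 0 and every interval of the Reb libraries on the other. The share of all genes that meet this rule was not computed, and the intervals hold counting error only. The 8 are therefore not read as a trait of the set. Each value here is the mean log2 fold change of both hairpins minus that of both Reb doses. The difference between the experiments was not tested, since each condition had 1 library and the tables were normalized separately. On the side that was lower with the hairpins and higher with Reb, the difference was -1.93 for ITGB1, -1.37 for TLN2, -1.25 for ARHGEF7, -1.21 for CRKL and -1.07 for LPP. ITGB1 averaged -0.98 with the hairpins and 0.95 with Reb. On the side that was higher with the hairpins and lower with Reb, the difference was 1.56 for TGFB1I1, 1.34 for ITGA5 and 1.12 for ZYX. Of these 8 genes, only CRKL kept its signs both with library totals and with GC content and length trends removed. Under library totals TLN2 and LPP were at -0.46 and -0.43 at 5 μM, and TGFB1I1 was at -0.06 with CDK16-sh2. With GC content and length trends removed, ITGB1 was at -0.02, ITGA5 at 0.03, ZYX at 0.05 and TGFB1I1 at 0.06, all at 1 μM. In that setting LPP was at 0.04 with CDK16-sh1 and at -0.003 at 5 μM, and ARHGEF7 was at 0.09 with CDK16-sh2.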

How the results depend on the processing

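No paired analysis was possible because each condition had 1 library, so the groups compared share fewer than 2 replicate numbers, and leaving out a library would leave no spread to test. With trends of GC content and length removed, 3 members were at least 2-fold lower with CDK16-sh1, beside 4.75% of all genes. With library totals, and with the authors' RPKM with 0.1 added, 8 were lower with CDK16-sh2 and 3 higher at 5 μM Reb, beside 11.1% and 11.7% of all genes with library totals. A 1.5-fold threshold gave 11 lower and 3 higher with CDK16-sh1, beside 18.8% and 16.5% of all genes, 11 lower with CDK16-sh2, beside 16.8%, and 1 lower at 1 μM, beside 7.19%. A 4-fold threshold gave 0 lower with either hairpin, beside 0.438% and 1.09%. At 5 μM it gave 8 lower, beside 10.1%, and 1 higher, beside 8.13%. Dose as a linear term called 14 members, 9 lower beside 11.1% and 5 higher beside 13.3%. In the other settings run the counts of members stayed within 1.5 times. The cause of these shifts was not tested, beyond the counts each setting uses. Of the 144 single values given for members and their medians, 87 moved by more than their counting interval with library totals, 108 with the GC content and length trends removed, 10 with DESeq2 size factors and 0 with TMM without mitochondrial transcripts, and 0 values called at 2-fold changed sign. Depth limits ITGB8, ITGB3, PTK2B and TNS1, which had at most 119 reads per library in the knockdown experiment.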
